A study of Mus musculus with 9 samples.

Results

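Transcripts of the Toll-like receptors (TLRs) that recognise proteins and lipids of bacteria and parasites, and of the proteins that work with them, were compared among resting DC subsets of the mouse spleen. The genes were taken by name from the count table: the receptor genes Tlr1, Tlr2, Tlr4, Tlr5, Tlr6, Tlr11 and Tlr12, and the co-receptor genes Cd14, Ly96 and Cd180. All 10 were found among the 39179 genes counted, and all 10 had enough counts to be tested among the 13819 genes that were. The subsets were CD8-positive conventional DC (cDC1), CD8-negative conventional DC (cDC2) and plasmacytoid DC (pDC), sorted at steady state, without stimulation, from C57BL/6J mice. The study's methods give the age of its mice as 6 to 12 weeks, and their sex is not given in the sources used here. Each subset was sequenced in 3 libraries, each from the pooled spleens of 15 to 17 mice, and libraries of different subsets with the same replicate number bear 1 date code and are called a sort here. The sort gated on surface proteins, with CD8 and CD11b parting cDC1 from cDC2, after other lineages had been depleted by antibodies, and each library is an average over many mice. No group was treated or genetically altered, and no subset serves as an untreated control for another.

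TLRs are receptors of innate immunity whose outer part, made of leucine-rich repeats, binds a microbial molecule and whose inner TIR domain recruits adaptors such as MyD88. TLR2 pairs with TLR1 to bind lipopeptides with a triacyl anchor and with TLR6 to bind those with a diacyl anchor, TLR4 binds lipopolysaccharide (LPS) together with MD-2 (encoded by Ly96) and CD14, and TLR5 binds flagellin. TLR11 and TLR12 bind profilin of Toxoplasma gondii, are found inside the cell, and drive IL-12 production by DC. CD180 is a relative of TLR4 without a TIR domain, is carried to the surface by MD-1 (encoded by Ly86), and is known from B cells and as a regulator of LPS responses.

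Library totals lay between 15806597 and 32453789 counts, and 3 counts, the floor used here, corresponded to between 0.0908 and 0.203 CPM (counts per 1000000 counts of the library, with TMM factors), which covers counting error only. Transcripts that define the subsets followed the labels. Siglech, a surface lectin of pDC, lay between 4330 and 5110 CPM in pDC and at or under 33.9 elsewhere, and Xcr1, a chemokine receptor of cDC1, lay between 929 and 947 CPM in cDC1 and at or under 64.9 elsewhere. Itgam, which encodes CD11b, lay between 221 and 248 CPM in cDC2 and at or under 15.8 elsewhere. Of the 6 markers listed for cDC2, however, 3 (Cd4, Clec10a and Cd209a) averaged higher in pDC than in cDC2, and the list summed to between 2938 and 3099 CPM in pDC and between 1933 and 2098 in cDC2.

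The stretch of 250 bases before the transcription start is shown for Tlr11, Tlr1 and Tlr12, the 3 members with the widest ratio between subset means, and for Cd180, the most abundant in pDC, with matches to short motifs of factors active in DC in capitals. They come from RefSeq on GRCm38.p6 and are written 5′ to 3′ on the strand of the gene. Windows of 7 of the 10 members were read and searched. The windows are chr14:50357664-50357913 (plus strand) for Tlr11, chr4:128618620-128618869 (minus strand) for Tlr12, chr5:64933559-64933808 (minus strand) for Tlr1 and chr13:102693308-102693557 (plus strand) for Cd180.
Tlr11: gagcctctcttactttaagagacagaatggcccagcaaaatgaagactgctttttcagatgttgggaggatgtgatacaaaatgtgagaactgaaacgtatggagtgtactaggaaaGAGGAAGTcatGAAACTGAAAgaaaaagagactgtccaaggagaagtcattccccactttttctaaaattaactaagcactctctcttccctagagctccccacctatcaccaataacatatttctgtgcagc
Tlr12: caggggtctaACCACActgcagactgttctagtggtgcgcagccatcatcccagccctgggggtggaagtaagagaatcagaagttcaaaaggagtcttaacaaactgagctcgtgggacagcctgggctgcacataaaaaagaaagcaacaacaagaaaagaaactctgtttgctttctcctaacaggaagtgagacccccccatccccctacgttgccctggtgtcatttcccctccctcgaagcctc
Tlr1: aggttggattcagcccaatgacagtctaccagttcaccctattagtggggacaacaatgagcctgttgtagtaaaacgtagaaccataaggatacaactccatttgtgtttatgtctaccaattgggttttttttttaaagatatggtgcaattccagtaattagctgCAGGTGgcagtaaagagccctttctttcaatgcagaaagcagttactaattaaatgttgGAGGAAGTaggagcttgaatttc
Cd180: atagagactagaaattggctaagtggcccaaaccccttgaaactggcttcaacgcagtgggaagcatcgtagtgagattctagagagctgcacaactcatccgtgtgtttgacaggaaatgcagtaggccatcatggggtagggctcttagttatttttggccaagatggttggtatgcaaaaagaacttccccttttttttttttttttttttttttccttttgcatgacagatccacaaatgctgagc

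The motifs searched on both strands were GAAA followed after any 2 bases by GAAA (the core of sites bound by IRF factors), GGAA followed after any 2 bases by GAAA (bound by PU.1 with IRF4 or IRF8), GAGGAAGT (PU.1), CAGCTG and CACCTG (E boxes), TGANTCA (AP-1), GGGA followed after any 4 bases by CC (NF-κB) and TGTGGT (RUNX), and they were chosen with the levels known. The Tlr11 window holds the IRF motif, starting 122 bases before the start, and GAGGAAGT, starting 133 bases before it, and the sites do not overlap. Of 32851 promoter windows of that length, 2.98% hold the first motif and 2.44% the second. The Tlr1 window holds GAGGAAGT at 23 bases and, on the other strand, CACCTG at 82 bases before the start, which 17.2% of windows hold. The Tlr12 window holds TGTGGT on the other strand (14.0% of windows), and none of the motifs is in the Cd180 window. Of the others searched, Tlr2 holds CACCTG and the NF-κB motif, Tlr5 the latter, and Tlr6 none. The start used for Tlr2 lies 159 bases from the principal start in GENCODE M21, and 159 of the 250 bases of its window lie in exons. These matches describe letters only and are not evidence of binding.

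The genes of both profilin receptors separated the subsets, and they did so differently. Tlr11 was high in cDC1, lower in cDC2 and lowest in pDC, while Tlr12 was high in cDC1 and pDC and low in cDC2. Tlr11 (ENSMUSG00000051969) lies on chromosome 14 from 50357914 to 50363663 in GRCm38, and Tlr12 (ENSMUSG00000062545) on chromosome 4 from 128615443 to 128618619. Neither shares a 75-base window with another gene's transcripts or an exon base with another gene.

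Tlr11 was at 532, 534 and 547 CPM in cDC1 sorts 1, 2 and 3, at 42.6, 57.4 and 62.8 CPM in cDC2, and at 5.57, 0.963 and 2.65 CPM in pDC. The subsets did not overlap, and the pDC libraries held 184, 19 and 45 counts, so all lay above the floor of 3. The cDC1 mean was 538 ± 8.39 CPM (SD, n = 3), that of cDC2 54.3 ± 10.5 and that of pDC 3.06 ± 2.33. The log2 fold change was -7.39 for pDC versus cDC1 (standard error, SE, 0.512, adjusted p = 2.05e-06), tested as everywhere here by the quasi-likelihood method of edgeR, with Benjamini-Hochberg adjusted values over every gene tested, and it amounts to 168-fold. Without pDC replicate 1, the pDC library with the most Tlr11, it was -8.24, and that for pDC versus cDC2 was -4.93. With all libraries, the value for cDC2 versus cDC1 was -3.31 (SE 0.415, edgeR adjusted p = 0.000308), or 9.91-fold lower, and for pDC versus cDC2 it was -4.08 (SE 0.451, edgeR adjusted p = 5.35e-05), or 16.9-fold lower. In these RNA pools, fewer cells carrying a transcript and less of it per cell cannot be told apart.

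Tlr12 was at 189, 175 and 220 CPM in cDC1, at 19.6, 19.9 and 17.1 CPM in cDC2, and at 208, 188 and 214 CPM in pDC. The cDC1 and pDC libraries overlapped, and every cDC2 library lay below both. The mean of cDC1 was 195 ± 22.7 CPM, that of cDC2 18.9 ± 1.53 and that of pDC 203 ± 13.9 (SD, n = 3). For pDC versus cDC1 the log2 fold change was 0.06 (SE 0.115, edgeR adjusted p = 0.689), with pDC higher in 2 of 3 sorts. Tlr12 was lower in cDC2 than in cDC1 by a log2 fold change of -3.36 (SE 0.127, edgeR adjusted p = 6e-07) and higher in pDC than in cDC2 by 3.43 (SE 0.128, edgeR adjusted p = 8.85e-08), which is 10.3-fold and 10.8-fold.

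Per kilobase of exon, the level of Tlr11 was 2.73, 2.96 and 2.42 times that of Tlr12 in cDC1 sorts 1, 2 and 3, and 2.11, 2.80 and 3.56 times in cDC2. In pDC the same ratio was 0.0260, 0.00498 and 0.0120. The pair thus stood in overlapping proportions in both conventional subsets, at 2.70 ± 0.271 and 2.82 ± 0.728 (SD, n = 3), although both genes were far lower in cDC2. In cDC2, Tlr11 was at 10.1% ± 1.83 and Tlr12 at 9.84% ± 1.84 of their levels in cDC1 of the same sort (SD, n = 3), beside 9.58% ± 1.76 for Tlr3, the double-stranded RNA receptor of cDC1.

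Markers of cDC1 were measured in the same way in cDC2. Cd8a, which the sort used, was at 1.51% of its cDC1 level, Itgae (an integrin chain) at 3.38%, Cadm1 (an adhesion molecule) at 5.21%, Xcr1 at 5.30% and Clec9a (a receptor for dead cells) at 8.0%. Batf3, a transcription factor of cDC1, stood at 72.2%. The Tlr11 and Tlr12 percentages thus lay above 5 of the 6 markers on average, though in sort 3 Tlr12, at 7.8%, lay below Clec9a, at 9.01%. The part of cDC1 RNA in the cDC2 libraries was not tested. In pDC, Tlr11 was at 1.05%, 0.180% and 0.484% of its cDC1 level in sorts 1, 2 and 3, with a mean of 0.571%. The 6 cDC1 markers spread widely there, with Xcr1 at 0.497%, Itgae at 0.672%, Batf3 at 1.62%, Cadm1 at 10.4%, Cd8a at 23.6% and Clec9a at 40.3%. Xcr1, Batf3, Cadm1 and Cd8a were also highest in sort 1 and lowest in sort 2. Clec9a was highest in sort 3 and lowest in sort 2, and Itgae was highest in sort 1 and lowest in sort 3. Tlr3 was at 1.05%, 0.214% and 0.513% of its cDC1 level in pDC of sorts 1, 2 and 3. The part of cDC1 RNA in the pDC value of Tlr11 was not tested.

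**Figure D1:**
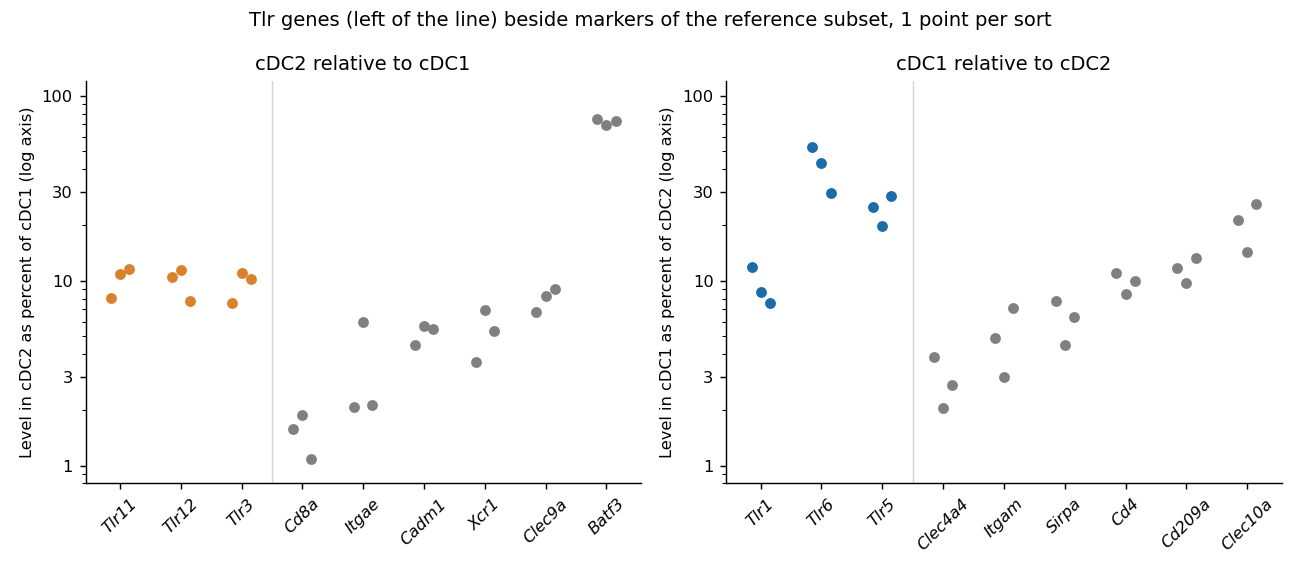
Level of Tlr genes and of subset markers in cDC2 as a percent of cDC1 of the same sort (left) and in cDC1 as a percent of cDC2 (right), on log axes, with 1 point per sort. Tlr11, Tlr12 and Tlr3 average between 9.58% and 10.1% in cDC2, while 5 cDC1 markers average between 1.51% and 8.0% and Batf3 72.2%, and Tlr1 averages 9.34% in cDC1.

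Among the lipopeptide receptors, Tlr1 was high in cDC2 and low elsewhere, Tlr6 averaged highest in cDC2 at a lower level, and Tlr2, the partner of both, overlapped between cDC1 and cDC2 and was lower in pDC. Tlr1 (ENSMUSG00000044827) is on chromosome 5, minus strand, from 64924679 to 64933563 and its neighbour Tlr6 (ENSMUSG00000051498) from 64952031 to 64960097, and Tlr2 (ENSMUSG00000027995) lies on chromosome 3 from 83836272 to 83841767. Windows of 75 bases are shared with other genes over 10.6% of Tlr1 transcripts and 9.25% of Tlr6 transcripts, those of Tlr6 all with Tlr1. How such reads were counted is not given in the sources used here, so the levels of these 2 genes are uncertain. For Tlr6 the uncertainty can exceed its shared percentage, since Tlr1 averaged 125 CPM in cDC2 against 17.8 for Tlr6. The part of Tlr1 reads in the Tlr6 levels and in their differences between subsets was not tested.

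Tlr1 was at 120, 117 and 137 CPM in cDC2 sorts 1, 2 and 3, at 14.1, 10.1 and 10.4 CPM in cDC1, and at 3.00, 1.06 and 2.59 CPM in pDC. No subset overlapped another. The cDC2 mean was 125 ± 11.1 CPM, beside 11.5 ± 2.26 for cDC1 and 2.22 ± 1.02 for pDC (SD, n = 3). The log2 fold change was 3.43 for cDC2 versus cDC1 (SE 0.283, edgeR adjusted p = 2.57e-05), -5.78 for pDC versus cDC2 (SE 0.326, edgeR adjusted p = 5.72e-07) and -2.35 for pDC versus cDC1 (SE 0.299, edgeR adjusted p = 0.000125).

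In cDC1, Tlr1 was at 9.34% ± 2.20 of its level in cDC2 of the same sort (SD, n = 3). The cDC2 markers Clec4a4 (a lectin), Itgam, which the sort used, and Sirpa were at 2.88%, 5.01% and 6.18% there, and Cd4, Cd209a and Clec10a at 9.81%, 11.6% and 20.5%. The part of cDC2 RNA in the Tlr1 level of cDC1 was not tested.

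Tlr2 was at 46.0, 45.7 and 52.9 CPM in cDC1, at 40.5, 45.3 and 45.9 CPM in cDC2, and at 21.8, 23.4 and 33.8 CPM in pDC. The conventional subsets overlapped, and the highest pDC library lay below the lowest conventional one. Tlr2 was lower in pDC by a log2 fold change of -0.87 against cDC1 (SE 0.169, edgeR adjusted p = 0.00185) and -0.74 against cDC2 (SE 0.168, edgeR adjusted p = 0.00504). For cDC2 versus cDC1 it was -0.13 (SE 0.166, edgeR adjusted p = 0.641).

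Tlr6 was at 16.8, 17.0 and 19.5 CPM in cDC2, at 8.82, 7.42 and 5.82 CPM in cDC1, and at 4.09, 4.66 and 9.66 CPM in pDC. Every cDC2 library lay above the others, and cDC1 and pDC overlapped. The log2 fold change was -1.54 for pDC versus cDC2 (SE 0.320, edgeR adjusted p = 0.00302) and 1.27 for cDC2 versus cDC1 (SE 0.316, edgeR adjusted p = 0.0157). The latter missed the threshold without cDC1 replicate 2 (log2 fold change 1.27, edgeR adjusted p = 0.0539) or replicate 3 (1.10, edgeR adjusted p = 0.0623). For pDC versus cDC1 the value was -0.28 (SE 0.319, edgeR adjusted p = 0.507), and without pDC replicate 3 it was -0.76 (edgeR adjusted p = 0.0153).

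Set against Tlr2 per kilobase of exon, the level of Tlr1 was 2.56 ± 0.207 times that of Tlr2 in cDC2, 0.217 ± 0.0527 times in cDC1 and 0.0780 ± 0.0420 times in pDC (SD, n = 3). The level of Tlr6 was 0.327 ± 0.0201, 0.125 ± 0.0334 and 0.181 ± 0.0436 times that of Tlr2 in the same order. In cDC2, therefore, Tlr1 was the most abundant of the 3 lipopeptide receptor transcripts, while in cDC1 and pDC it was Tlr2.

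**Figure D2:**
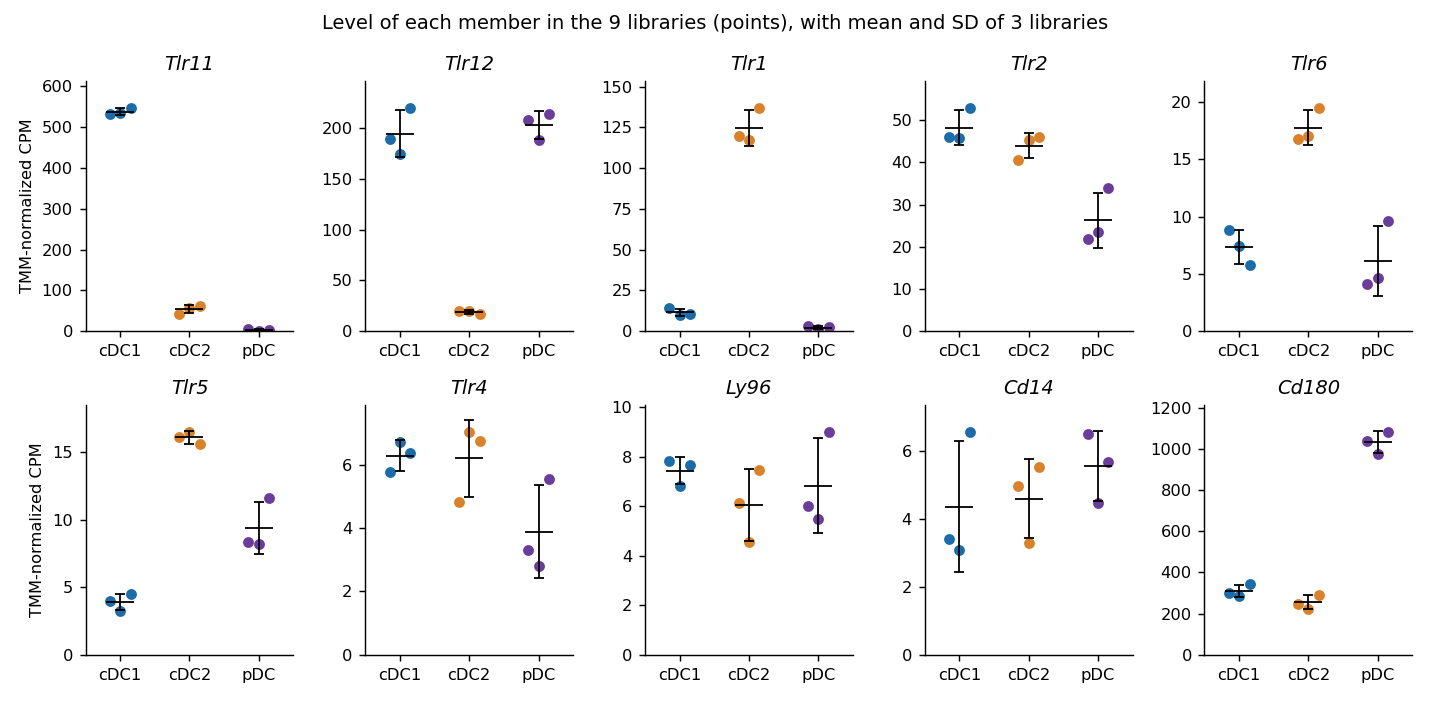
Level of each member as TMM-normalized CPM on a linear axis from 0, with 1 point per library and the mean and SD of 3 libraries per subset. Tlr11 is high in cDC1 at 538 CPM, Tlr12 in cDC1 and pDC, Tlr1 in cDC2 at 125 CPM and Cd180 in pDC at 1033 CPM, while Tlr4, Ly96 and Cd14 stay under 10 CPM in all 9 libraries.

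Tlr5, the flagellin receptor gene (ENSMUSG00000079164, chromosome 1 from 182954788 to 182976044), was highest in cDC2 and lowest in cDC1. It was at 16.1, 16.5 and 15.6 CPM in cDC2, at 8.32, 8.21 and 11.6 CPM in pDC, and at 4.01, 3.25 and 4.47 CPM in cDC1, with no overlap between subsets. Counts were modest, between 66 and 504 per library. The log2 fold change was 2.04 for cDC2 versus cDC1 (SE 0.210, edgeR adjusted p = 9.04e-05), 1.26 for pDC versus cDC1 (SE 0.208, edgeR adjusted p = 0.00068) and -0.78 for pDC versus cDC2 (SE 0.200, edgeR adjusted p = 0.00969).

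The genes of the LPS receptor complex were low in every subset, and none of the 3 was past the threshold in any comparison of the subsets. Tlr4 (ENSMUSG00000039005, chromosome 4 from 66827584 to 66930284) was at 5.76, 6.71 and 6.37 CPM in cDC1, at 4.81, 7.04 and 6.75 CPM in cDC2, and at 3.30, 2.79 and 5.54 CPM in pDC. All pDC libraries lay below the cDC1 libraries, and pDC and cDC2 overlapped. For pDC versus cDC1 its log2 fold change was -0.70 (SE 0.300, edgeR adjusted p = 0.0795), and with the replicate number as a block it was -0.74 (edgeR adjusted p = 0.0459). For pDC versus cDC2 it was -0.68 (SE 0.299, edgeR adjusted p = 0.0902). Without pDC replicate 3 the values were -1.04 and -1.02 (edgeR adjusted p = 0.00715 and 0.00835), both past the threshold.

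Ly96 (ENSMUSG00000025779, chromosome 1 from 16688051 to 16709611) was at 7.83, 6.80 and 7.65 CPM in cDC1, at 6.12, 4.55 and 7.44 CPM in cDC2, and at 6.02, 5.47 and 9.01 CPM in pDC, so that pDC overlapped both other subsets. Its log2 fold changes lay between -0.30 and 0.18 (SE 0.265 in each comparison). Cd14 (ENSMUSG00000051439, on chromosome 18) was at 3.42, 3.09 and 6.57 CPM in cDC1, at 4.97, 3.29 and 5.53 CPM in cDC2, and at 6.51, 4.46 and 5.66 CPM in pDC, with all subsets overlapping. Its log2 fold changes lay between 0.09 and 0.36 (SE 0.349 to 0.352). Since Ly96 has 1021 exon bases against 5556 for Tlr4, its level per kilobase was higher than that of Tlr4, by 6.49 ± 0.949 times in cDC1 (SD, n = 3), 5.48 ± 1.76 times in cDC2 and 9.83 ± 0.919 times in pDC.

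Macrophages and monocytes carry Tlr4 and Cd14, and their markers were present in the libraries. The 8 macrophage genes, C1qa and Cd5l among them, summed to between 95.2 and 167 CPM in cDC1 libraries, 457 and 639 in those of cDC2, and 30.3 and 173 in those of pDC, and none of the 8 was at or under the floor in every library of a subset. By sort 1, 2 and 3 the sum was 167, 95.2 and 126 CPM in cDC1, 639, 457 and 632 in cDC2, and 143, 30.3 and 173 in pDC. Its order over the sorts matched that of Tlr4 in pDC and was the reverse of it in cDC1 and cDC2. It matched that of Ly96 in pDC and cDC1 but not in cDC2, and that of Cd14 in no subset. The sum, Ly96 and Cd14 were nevertheless all lowest in sort 2 in every subset. Where the sum did not match Ly96 or Cd14, only the order of sorts 1 and 3 differed. Adgre1, at 334, 308 and 390 CPM, made up most of the cDC2 sum and is also expressed by cDC2. C1qa, C1qb and C1qc also averaged highest in cDC2, at 42.6, 48.0 and 41.2 CPM, against at most 9.68 in cDC1 and 16.1 in pDC. Spic, Cd5l and Mertk averaged highest in cDC2 too, while Vcam1 averaged 72.6 CPM in cDC1 against 67.9 in cDC2. The 5 monocyte genes in the table summed to between 269 and 429 CPM in cDC1 libraries, 1121 and 1706 in those of cDC2 and 2005 and 3029 in those of pDC, where Ly6c2, at 1955 to 2715 CPM, led the sum and is also expressed by pDC. Neutrophil genes summed to at most 34.6 CPM in a library, NK cell genes to at most 78.1 and T cell genes to at most 51.1. The part of these cells in the levels of Tlr4, Ly96 and Cd14 was not tested.

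Cd180 had the highest CPM of the members in pDC and in cDC2. Cd180 (ENSMUSG00000021624) lies on chromosome 13 from 102693558 to 102739629, and exons of Mast4 on the other strand cover 4.04% of its exon bases. It was at 1038, 975 and 1084 CPM in pDC, at 299, 288 and 345 CPM in cDC1, and at 249, 225 and 291 CPM in cDC2. All pDC libraries lay far above the others, and cDC1 and cDC2 overlapped. The log2 fold change was 1.73 for pDC versus cDC1 (SE 0.120, edgeR adjusted p = 2.07e-06) and 2.02 for pDC versus cDC2 (SE 0.121, edgeR adjusted p = 8.55e-07). For cDC2 versus cDC1 it was -0.29 (SE 0.117, edgeR adjusted p = 0.113), with cDC2 lower in 3 of 3 sorts, and with the replicate block -0.29 (edgeR adjusted p = 0.00572).

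B cells also carry CD180, and 5 of their marker genes were measured. Their sum lay between 12.7 and 16.7 CPM in pDC and 61.1 and 70.0 in cDC1, and was at least 211 in each cDC2 library, and it was led by Cd22 in cDC2 and pDC and by Ms4a1 in cDC1. Cd79a, a chain of the B cell receptor, went the other way, at 2.54, 4.11 and 0.412 CPM in pDC against at most 0.630 in any other library. Pax5, the transcription factor of B cells, was at 0.405 CPM or less in all 9 libraries and averaged highest in pDC, at 0.165 CPM. Fcer2a, a receptor for IgE, averaged 1.73 CPM in pDC, between 2.92 in cDC2 and 0.590 in cDC1. The part of B cells in the Cd180 levels was not tested.

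Ly86, the partner of CD180, was at 677 ± 82.2 CPM in pDC, 353 ± 38.6 in cDC2 and 245 ± 40.3 in cDC1 (SD, n = 3). It was higher in pDC than in cDC1 by a log2 fold change of 1.47 (edgeR adjusted p = 2.23e-05) and than in cDC2 by 0.94 (edgeR adjusted p = 0.000475), and also higher in cDC2 than in cDC1, by 0.53 (edgeR adjusted p = 0.0231). The level of Ly86 per kilobase was 0.812 ± 0.0655 times that of Cd180 in pDC, 0.973 ± 0.0629 in cDC1 and 1.72 ± 0.0375 in cDC2. The order of the conventional subsets was thus opposite in the pair, with Ly86 higher and Cd180 not higher in cDC2.

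**Figure D3:**
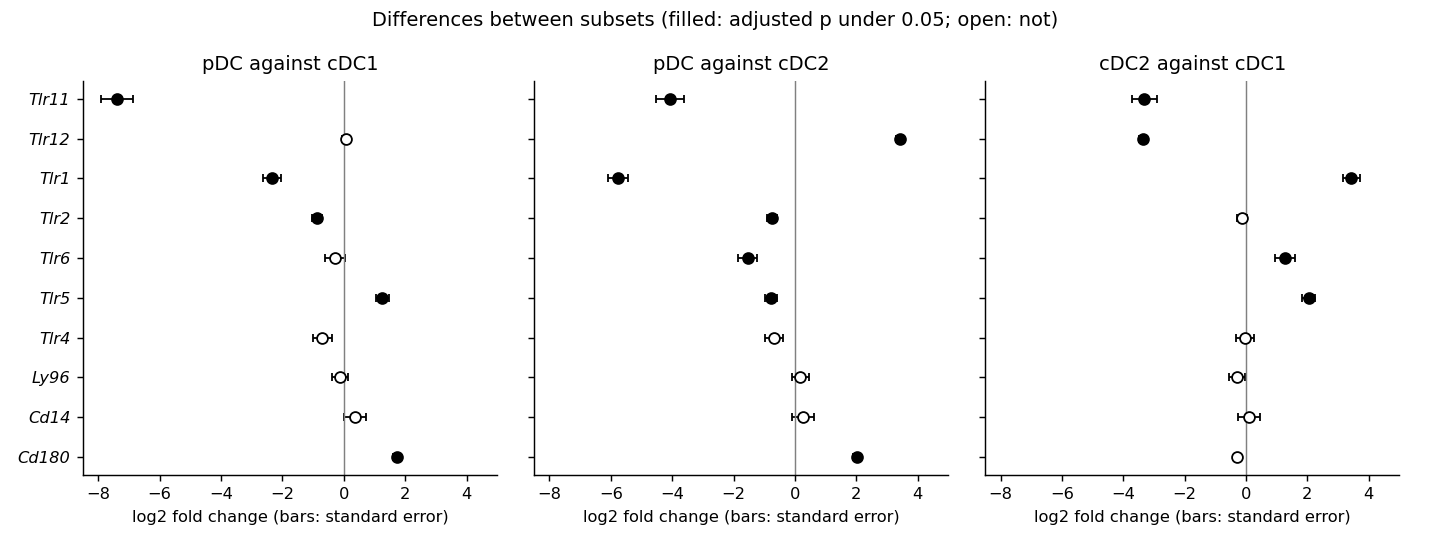
Log2 fold change of each member for pDC versus cDC1, pDC versus cDC2 and cDC2 versus cDC1, with bars for the standard error and filled points for an adjusted p under 0.05. Tlr11 falls farthest in pDC versus cDC1, at -7.39, Tlr12 changes sign between comparisons, and Tlr4, Ly96 and Cd14 have open points in all 3.

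Counted together, the members differed between subsets as follows, with comparisons that share libraries. For pDC versus cDC1, 5 of 10 members passed the threshold, 2 higher (Cd180 and Tlr5) and 3 lower (Tlr11, Tlr1 and Tlr2), beside 48.6% of all genes tested (24.3% higher and 24.4% lower). For pDC versus cDC2, 7 of 10 passed, 2 higher (Tlr12 and Cd180) and 5 lower (Tlr1, Tlr11, Tlr6, Tlr5 and Tlr2), beside 45.8% of all genes (22.5% higher and 23.3% lower). For cDC2 versus cDC1, 5 of 10 passed, 3 higher (Tlr1, Tlr5 and Tlr6) and 2 lower (Tlr12 and Tlr11), beside 24.4% of all genes (12.7% higher and 11.7% lower). With the replicate block, 6, 7 and 6 members passed, beside 58.6% (29.2% higher and 29.4% lower), 55.5% (27.1% and 28.4%) and 35.6% (18.5% and 17.1%) of all genes. The share of members called was therefore near that of all genes for pDC versus cDC1.

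The median log2 fold change of the members was -0.20, -0.71 and -0.07 for pDC versus cDC1, pDC versus cDC2 and cDC2 versus cDC1, beside 0.02, -0.01 and 0.03 for all genes. The median size of the change, regardless of sign, was 0.78, 1.16 and 0.79, beside 0.63, 0.59 and 0.36. The 10 genes thus had no common direction, and the size of their changes differed widely, with log2 fold changes of 0.06 for Tlr12 and -7.39 for Tlr11 in pDC versus cDC1.

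Per kilobase of exon, members could be ordered within a subset. In cDC1 the level of Tlr11 was 164 CPM per kilobase, ahead of Cd180 at 68.9 and Tlr12 at 61.3, with Tlr2 next and the other 6 members at or under 7.27. Cd180 and Tlr12 differed by less than the sum of their SDs. In cDC2, Cd180 was at 56.5 CPM per kilobase, Tlr1 at 37.2, Tlr11 at 16.6 and Tlr2 at 14.6, of which the last 2 overlapped within their SDs. In pDC, Cd180 was at 229 and Tlr12 at 64.0, followed by Tlr2 at 8.73 and Ly96 at 6.70, with Tlr11 at 0.935, Tlr4 at 0.697 and Tlr1 at 0.663 at the low end, in an order that changed between libraries.

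Of the summed level per kilobase of 12 Tlr genes, the 7 receptor genes described here made up 67.8% ± 0.813 in cDC1, 48.1% ± 2.28 in cDC2 and 29.0% ± 0.396 in pDC (SD, n = 3). The other 5 are Tlr3, Tlr7, Tlr8, Tlr9 and Tlr13, the receptors for nucleic acids. In cDC1, Tlr11 alone held 44.8% ± 1.01 and Tlr12 16.7% ± 1.34. In cDC2 the first place was held by Tlr1, at 21.4% ± 0.951, close to Tlr9 at 19.1% ± 1.36. In pDC, Tlr12 held 23.6% ± 0.998, behind Tlr7 at 39.7% ± 6.01 and Tlr9 at 30.6% ± 6.35, so that 1 gene made up most of the share of the 7. These shares are a make-up of RNA and do not measure protein.

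**Figure D4:**
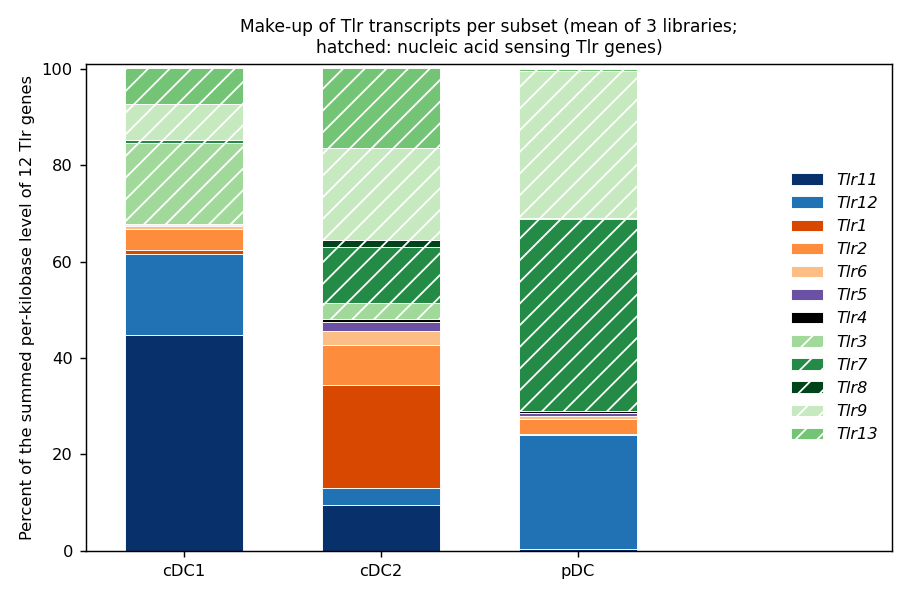
Share of each of 12 Tlr genes in their summed per-kilobase level, as the mean of 3 libraries per subset, with the nucleic acid sensing receptors hatched. Solid colours, the genes described here, reach 67.8% in cDC1, 48.1% in cDC2 and 29.0% in pDC, and Tlr12 makes up 23.6% in pDC.

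Some genes had a pattern close to that of a member over the 9 libraries, by Pearson correlation of log2(CPM + 1) among 10481 genes with a mean count of at least 100. These correlations describe 9 points that share 3 subsets and 3 sorts. The closest to Tlr11 were Tlr3 (r = 0.998), Dbn1 (0.998), which encodes an actin-binding protein, and Cxcl9 (0.996), a chemokine. The closest to Tlr12 were Kctd11, Tulp3 and Slc9a9 (r = 0.995, 0.995 and 0.994), of which Slc9a9, a sodium and proton exchanger of endosomes, averaged 205 CPM in cDC1 and 213 in pDC, and 79.1 in cDC2. The closest to Tlr1 were Marveld1, 1810033B17Rik and Bbs9 (r = 0.998, 0.997 and 0.996). For Cd180 they were Them6, Cd209d and Tmem229b (r = 0.998, 0.997 and 0.997), of which the lectin gene Cd209d was at 469 CPM in pDC against 14.0 in cDC1 and 6.70 in cDC2, and for Tlr5 they were Fam107b, Rnf130 and Apobec1 (r = 0.992, 0.989 and 0.984).

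Of 30 other genes listed for the TLR pathway, 29 were tested. Lbp, the LPS-binding protein of serum, was not, at 0.0938 CPM or less on average in each subset. For pDC versus cDC1, 11 were higher and 9 lower, or 69.0% called beside 48.6% of all genes. For pDC versus cDC2, 9 were higher and 10 lower, or 65.5% beside 45.8%, and for cDC2 versus cDC1, 7 were higher and 7 lower, or 48.3% beside 24.4%. With the replicate block the calls were 20, 23 and 19 of the 29, beside 58.6%, 55.5% and 35.6% of all genes. Calls in both directions were thus near equal in number. The chaperones that bring TLRs to their place went one way between pDC and cDC1, with 4 of 4 higher in pDC, beside 24.3% of all genes. Among them Unc93b1, which carries endosomal TLRs including TLR11 and TLR12, was at 1520 ± 102 CPM in pDC, 993 ± 84.0 in cDC1 and 875 ± 59.6 in cDC2 (SD, n = 3), and Hsp90b1, the chaperone gp96, at 1978 ± 407, 1233 ± 291 and 512 ± 90.3. Cnpy3 and Cnpy4, which assist gp96, were higher in pDC than in cDC1 by log2 fold changes of 0.70 and 0.99 (edgeR adjusted p = 0.000244 and 0.000327). For pDC versus cDC2, 3 of 4 were higher, beside 22.5% of all genes, and Cnpy4 did not pass (0.30, edgeR adjusted p = 0.12). With the replicate block 4 of 4 were higher, beside 27.1% of all genes.

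The adaptors that link these receptors to signalling differed by gene. Ticam2 (TRAM), which serves TLR4, was at 48.3 ± 4.11 CPM in cDC2, 8.82 ± 2.70 in pDC and 6.39 ± 0.773 in cDC1 (SD, n = 3), with a log2 fold change of 2.92 for cDC2 versus cDC1 (edgeR adjusted p = 2.07e-05). Tirap, which bridges MyD88 to TLR2 and TLR4, averaged 20.1 ± 2.65 CPM in cDC1 against 9.16 ± 1.29 in cDC2 and 5.47 ± 0.669 in pDC, and the log2 fold change of pDC versus cDC1 was -1.88 (edgeR adjusted p = 2.58e-05). Pik3ap1 (BCAP), an adaptor to PI3K, was higher in pDC than in cDC1 by 1.59 and than in cDC2 by 1.32 (edgeR adjusted p = 1.71e-05 and 6.51e-05). Myd88 itself was at 126 ± 14.1, 172 ± 21.6 and 137 ± 14.4 CPM in cDC1, cDC2 and pDC, and was higher in cDC2 than in cDC1 (log2 fold change 0.45, edgeR adjusted p = 0.0333). For pDC versus cDC2 its log2 fold change was -0.33 (edgeR adjusted p = 0.0658), and with the replicate block -0.33 (edgeR adjusted p = 0.00138).

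Of 6 kinases and ligases below the adaptors, none passed the threshold for cDC2 versus cDC1, beside 24.4% of all genes. With the replicate block Irak4 and Map3k7 passed (edgeR adjusted p = 0.0486 and 0.0239), beside 35.6% of all genes. Irak4 and Peli1 were lower in pDC than in either conventional subset, which is 2 of 6 beside 24.4% of all genes lower against cDC1 and 23.3% against cDC2. Irak1 was at 154 ± 4.27, 166 ± 3.34 and 158 ± 1.57 CPM in cDC1, cDC2 and pDC (SD, n = 3). Of 5 inhibitors, Irak3 (IRAK-M) was higher in cDC2 than in cDC1 by a log2 fold change of 2.35 (edgeR adjusted p = 0.014), at 3.98 ± 0.548 against 0.786 ± 0.431 CPM. It was the 1 of 5 that passed in that comparison, beside 24.4% of all genes. With the replicate block Tnfaip3 (A20) passed too (0.53, edgeR adjusted p = 0.00782), beside 35.6% of all genes. Among partners, the scavenger receptor gene Cd36, which hands lipids to TLR2, averaged 539 ± 22.8 CPM in cDC1 against 35.2 ± 7.03 in cDC2 and 28.1 ± 8.91 in pDC, with a log2 fold change of -3.94 for cDC2 versus cDC1 (edgeR adjusted p = 5.21e-06).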

How the data were processed

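RNA of sorted splenic cDC1, cDC2 and pDC was made into stranded libraries of polyadenylated RNA and sequenced as single reads of 75 bases. The authors deposited raw read counts per gene for 9 libraries, not normalized. The submitters' processing notes name STAR, featureCounts, SAMtools, MultiQC and the build mm10, without versions or roles. The annotation, the strand setting and the treatment of reads that match several genes are not given in the sources used here. Of the members, reads that match several genes concern Tlr1 and Tlr6 most. The strand setting concerns Cd180, whose exons are partly covered by those of Mast4. The paper names Degust without a statistical method.

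The counts went into edgeR 4.0.16 under R 4.3.3 (filterByExpr with a minimum count of 10, TMM, quasi-likelihood test, all 9 libraries in one fit, subset as the only term), with Benjamini-Hochberg adjustment across the 13819 tested genes and a threshold of 0.05. Standard errors were derived from the fold change and its F statistic. GENCODE M21 (GRCm38) gave positions and exon lengths, and 96.21% of identifiers in the count table matched it. The annotation behind the counts may differ in exon length. Same-numbered libraries share a date code and deviated together from their subset means (mean correlation across genes 0.403 over 9 pairs, 0.266 to 0.543). They are paired in the fit with the replicate block and in the percentages taken sort by sort. The main fit, which gave the p-values unless stated otherwise, leaves this pairing out. Within a subset, replicates differed beyond sampling noise (chi-square per degree of freedom 10.4 to 66.4). The 3 libraries of a subset bear different date codes, and libraries of the same sort may share a pool of mice.

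The genes named are the 10 members, genes taken from a pathway list that was counted whole and from marker lists that were summed whole, and for members with subset means at least 4 times apart the 3 genes most correlated with them. One B cell marker is not reported here, and the markers Cr2, Ebf1 and Chil3 were not matched by name. Members and lists were chosen with earlier results of these data known. The alternatives were the replicate block, DESeq2 1.42.0, limma-voom (limma 3.58.1), RLE factors, library size only, upper quartile factors, no filter, a minimum of 10 counts per library, the 6 libraries compared, an adjusted p of 0.01 and each library left out. The test was tried on simulated data. Python 3.11.15 and matplotlib 3.10.9 drew the figures.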

Additional observations from a re-analysis of the deposited data

How the results depend on the processing

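The numbers of members past the threshold stayed within 1.5 times those given above in every alternative run, as did those of pathway genes. With single libraries left out, 5 to 7 members passed for pDC versus cDC1, 7 to 8 for pDC versus cDC2 and 4 to 6 for cDC2 versus cDC1. Of 540 values of single members under alternatives, 523 kept direction and side of the threshold, 8 changed sign, 7 passed newly and 2 no longer passed. None of those that changed sign passed in either setting, and the cause was not tested. The log2 fold change of Tlr4 for cDC2 versus cDC1 was 0.09 with library size only and lay between -0.14 and 0.13 over left-out libraries. That of Cd14 lay between -0.11 and 0.46 in the same comparison, that of Tlr12 for pDC versus cDC1 between -0.01 and 0.12, and that of Ly96 for pDC versus cDC2 between -0.06 and 0.34.

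Pairing the sorts through the replicate block brought in 2 calls, Tlr4 for pDC versus cDC1 (log2 fold change -0.74, edgeR adjusted p = 0.0459) and Cd180 for cDC2 versus cDC1 (-0.29, edgeR adjusted p = 0.00572), and changed no other call of a member. Limma-voom called Tlr4 for pDC versus cDC1 too (-0.80, limma adjusted p = 0.0423). Without cDC2 replicate 3, Cd180 was past the threshold for cDC2 versus cDC1 (-0.42, edgeR adjusted p = 0.0332). Library size only moved the median of all genes to 0.11 for pDC versus cDC1 and 0.14 for cDC2 versus cDC1. In pDC, Tlr1 and Tlr11 rest on 19 to 184 counts per library, which limits the precision of their levels.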
